A study of Homo sapiens with 12 samples.

Results

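The guanylate-binding proteins GBP1, GBP2, GBP3, GBP4 and GBP5 were chosen by gene symbol, and all 5 were found among the 60099 genes of the expression table. All 5 passed the filter on low counts that left 19944 genes for testing. The RNA came from Cal27 and HN30, established cell lines of head and neck squamous cell carcinoma (HNSCC), sequenced after ribosomal RNA removal. Cells received no IFNα (letters A and D), 20 ng/ml (B and E) or 200 ng/ml (C and F) for 24 h, with 2 replicates a letter and 12 samples in all. The sample titles give only control, low dose or high dose, and the amounts come from the design text. Letters A to C form one line set and D to F the other, each set standing for a single line, and the sources used here do not name which line is which. The labels do not say that replicates were separate cultures, so p-values measure the spread between these samples, which may be technical.

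Guanylate-binding proteins are large GTPases that assemble into coats on bacteria, vacuoles and membranes inside the cell. They are best known as targets of IFNγ, which raises them in part through IRF1, while type I interferons such as IFNα act mainly through a complex that contains STAT2 and IRF9. In epithelial cells GBP1 binds the lipopolysaccharide of cytosolic Gram-negative bacteria, draws GBP2, GBP3 and GBP4 into the coat, and brings in caspase-4. GBP1, GBP2 and GBP5 carry a prenyl lipid anchor, whereas GBP3 and GBP4 do not.

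Treated samples differed from controls as their labels say. Library totals were between 10517448 and 16056734 estimated counts. Of 10 interferon-stimulated genes checked, all 10 were called higher at 200 and all 10 at 20 ng/ml, against 1.58% and 0.963% of all genes. Their median log2 fold changes were 4.39 and 4.16. At 200 against 20 ng/ml 0 of the 10 were called higher, against 0.015% of all genes, so these calls do not check the low and high dose labels. Of 9 epithelial markers, all 9 reached 1 TPM, a transcript level scaled for length and depth, in at least 1 sample, with sums of 2073 to 4038 TPM, although KRT14, a basal keratin, held 0 to 3 counts in D-F. Of 7 leukocyte markers, PTPRC, CD3E and LYZ stayed under 1 TPM and CD3E was at 0. CD14 reached 2.29 TPM and ITGAM 1.05 TPM. The leukocyte sum lay at 9.52 to 13.2 TPM in A-C controls and 18.9 to 19.0 at 200 ng/ml, and at 5.38 to 7.63 and 37.1 to 40.6 TPM in D-F. CD68, a lysosomal protein abundant in macrophages, made up most of that sum and was called higher at 200 ng/ml (log2 fold change 1.77, adjusted p = 4.33e-05). What part the cells behind that sum had in the results was not tested. Endothelial CDH5 held 317 to 526 counts in A-C and 0 to 2 in D-F, and KDR was at 0. Of 6 fibroblast markers, COL1A1 lay at 3.43 to 13.0 TPM in every sample, COL1A2 and PDGFRB passed 1 TPM in some, and DCN, LUM and COL3A1 stayed under it, with sums of 5.55 to 15.4 TPM. In bulk RNA, fewer cells expressing a gene and less RNA per cell cannot be told apart.

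The genes lie together on chromosome 1, all on the minus strand of GRCh38. GBP3 (ENSG00000117226) spans chr1:89006666-89022894, GBP1 (ENSG00000117228) spans chr1:89052319-89065360, and GBP2 (ENSG00000162645) spans chr1:89106132-89150456. GBP4 (ENSG00000162654) spans chr1:89181148-89198932 and GBP5 (ENSG00000154451) spans chr1:89258950-89272804. The coding sequences of GBP1 and GBP3 were the closest pair, identical at 91.6% of aligned bases, while GBP4 shared 66.5% to 67.7% with the other four. Shared sequence bears on the values, because reads from it can be assigned to the wrong gene. Of the 31-base words of the longest coding transcript, 25.7% in GBP1 occurred in another gene, led by the pseudogene GBP1P1 and GBP3. The share was 11.8% in GBP3, 11.0% in GBP4, 8.08% in GBP2 and 1.21% in GBP5.

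The interferon-stimulated response element (ISRE) is bound by the complex that contains STAT2 and IRF9, and the gamma-activated site (GAS) is the element of the IFNγ response. Both were searched, on both strands, in windows from 250 bases before to 50 after each gene's start in RefSeq (GRCh38.p14). Windows were matched for GBP1, GBP3 and GBP4, and not for GBP2 and GBP5. The ISRE letters, TTTC, any 2 bases and TTTC, or their reverse complement GAAA, any 2 bases and GAAA, occurred in 1255 of 35116 windows (3.57%), and the GAS letters, TTCNNNGAA, in 2689 (7.66%). The motifs do not overlap in their letters in GBP3, although the windows printed for it do. Each of the 3 matched members held 1 ISRE match, and GBP3 also held 1 GAS match. The matches are printed because the members that carry them differ in response, with the match in capitals, 5′ to 3′ on the minus strand. The window of GBP6, a relative of the members, was also searched and held 0 ISRE and 0 GAS matches, yet GBP6 was called higher at the high dose. The GBP7 stretch, with no match, is set beside them because it lies opposite the GBP1 site.
GBP1 ISRE, chr1:89065316-89065345: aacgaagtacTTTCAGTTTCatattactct
GBP3 ISRE, chr1:89022845-89022874: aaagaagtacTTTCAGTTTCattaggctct
GBP4 ISRE, chr1:89198927-89198956: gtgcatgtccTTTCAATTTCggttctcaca
GBP3 GAS, chr1:89022862-89022891: actgagtcacTTCCTTGAAagaagtacttt
GBP7 opposite the GBP1 site, chr1:89176150-89176179: tgctaaatcatggactgtcatattactcta

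GBP1 and GBP3 held the same ISRE letters, and GBP4 held a different filling of the open positions. The GBP1 match began 127 bases before the RefSeq start, but 25 bases inside the first exon of GBP1-201, the coding transcript in GENCODE. The GBP3 match lay 30 bases inside the first exon of GBP3-208, and the GBP4 match lay before the first exon of GBP4-201. The GBP1 and GBP3 windows aligned over 153 bases with 82.4% identity. The GBP7 window aligned with that of GBP1 over 234 bases at 73.1% identity, and 6 bases of the GBP1 match fell among 13 GBP1 bases that had no partner there. GBP7 itself held 0 to 1 counts in every sample, so its response could not be tested. A match of letters is a description and does not show that a factor bound there.

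GBP1, GBP3, GBP4 and GBP5 rose after 200 ng/ml IFNα, and GBP2 passed the p threshold without reaching 2-fold. A gene was called in edgeR at a fold of 2 or more and an adjusted p (Benjamini-Hochberg, over all genes) of 0.05 or less. By that rule 4 of 5 members were called higher at 200 ng/ml, against 1.58% of all genes tested. At 20 ng/ml 3 of 5 were called higher (GBP1, GBP4 and GBP5), against 0.963% of all genes. The median log2 fold change of the members was 2.31 at 200 ng/ml and 1.69 at 20 ng/ml, and those of all genes were -0.01 and -0.01.

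**Figure D1:**
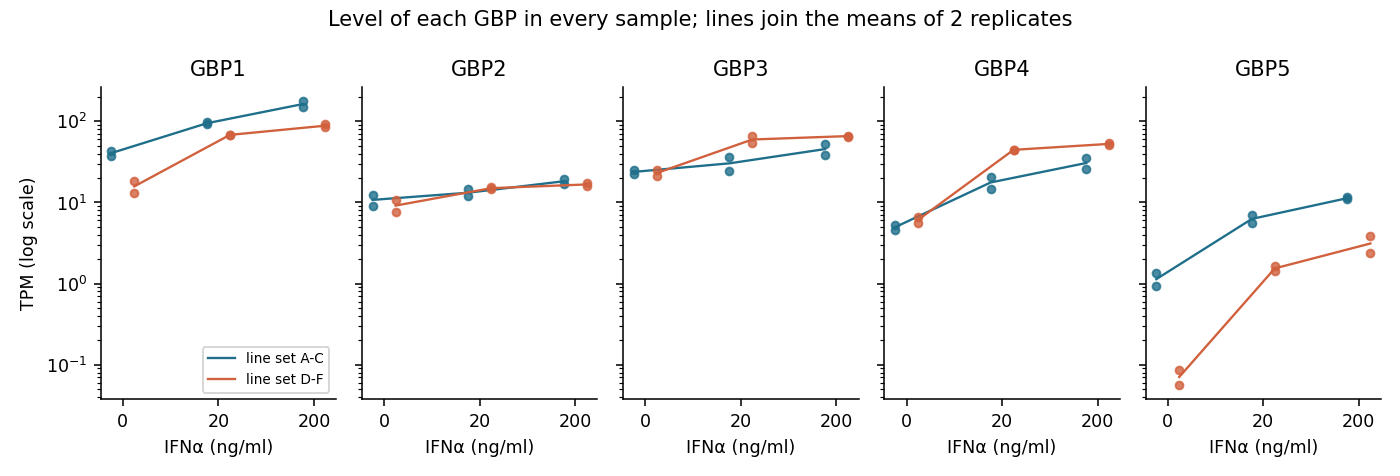
TPM of each gene (log axis) against IFNα dose, with 1 point per sample, line sets in different colours and lines joining the means of 2 replicates. GBP1 in A-C goes from 37.9 to 43.3 TPM in controls to 150 to 176 TPM at 200 ng/ml, and GBP5 in D-F starts under 0.1 TPM.

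GBP1, which initiates the coat on bacteria, was the most abundant member in every treated sample. Its level in A-C was 43.3 and 37.9 TPM in controls, 92.1 and 97.5 at 20 ng/ml, and 150 and 176 at 200 ng/ml. In D-F it was 18.4 and 13.2 TPM in controls, 68.6 and 67.6 at 20 ng/ml, and 91.5 and 85.5 at 200 ng/ml. The 3 doses did not overlap in either line set, and the treated D-F samples stayed below the A-C samples of the same dose. With 2 samples a dose, a lack of overlap can easily arise by chance, and its share over all genes was not computed. The log2 fold change was 2.31 (SE 0.09, adjusted p = 1.67e-07) at 200 and 1.69 (SE 0.09, adjusted p = 2.09e-06) at 20 ng/ml.

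GBP4, a member without a prenyl anchor that joins the GBP1 coat, started low and rose in both sets. Its level in A-C was 5.29 and 4.63 TPM in controls, 20.5 and 14.8 at 20 ng/ml, and 26.1 and 35.2 at 200 ng/ml. In D-F it was 6.63 and 5.55 TPM in controls, 44.9 and 44.3 at 20 ng/ml, and 53.8 and 51.8 at 200 ng/ml. Doses did not overlap, and treated D-F samples were above every A-C sample. The log2 fold change was 2.68 (SE 0.09, adjusted p = 6.22e-08) at 200 and 2.1 (SE 0.09, adjusted p = 4.26e-07) at 20 ng/ml.

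GBP5, which promotes assembly of the NLRP3 inflammasome in macrophages and with GBP2 lowers the activity of the protease furin, was the least abundant member. Its level in A-C was 0.933 and 1.34 TPM in controls, 5.53 and 7.02 at 20 ng/ml, and 11.04 and 11.6 at 200 ng/ml. In D-F it was 0.056 and 0.085 TPM in controls, 1.42 and 1.66 at 20 ng/ml, and 3.86 and 2.39 at 200 ng/ml. Doses did not overlap, and the D-F samples at 200 ng/ml lay below the A-C samples at 20 ng/ml. The log2 fold change was 4.02 (SE 0.33, adjusted p = 6.24e-05) at 200 and 3.15 (SE 0.33, adjusted p = 0.000541) at 20 ng/ml. The D-F controls held 2 and 4 counts, so their fitted change depends on the prior count. The ratio of summed counts, scaled for depth, at 200 ng/ml was 24.4 in D-F (95% exact interval 10.9 to 67.9) and 11.2 in A-C (8.44 to 15.1). At 20 ng/ml it was 12.9 (5.62 to 36.6) in D-F and 6.38 (4.79 to 8.65) in A-C. These intervals cover counting error only, and at 200 ng/ml the D-F replicates held 83 and 34 counts.

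GBP3, the closest relative of GBP1 in sequence, was among the most abundant members in controls and rose less. Its level in A-C was 25.2 and 22.5 TPM in controls, 24.7 and 36.02 at 20 ng/ml, and 38.9 and 52.2 at 200 ng/ml. In D-F it was 21.2 and 24.9 TPM in controls, 54.1 and 65.4 at 20 ng/ml, and 66.7 and 64.9 at 200 ng/ml. In A-C control and 20 ng/ml samples overlapped, and in D-F the treated doses overlapped. The log2 fold change was 1.08 (SE 0.11, adjusted p = 0.000259) at 200 and 0.83 (SE 0.11, adjusted p = 0.00218) at 20 ng/ml, the latter under 2-fold. Without the second C replicate the value at 200 ng/ml was 0.99, which ended the call.

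GBP2, a prenylated member of the coat, changed least. Its level in A-C was 9.06 and 12.5 TPM in controls, 14.5 and 11.9 at 20 ng/ml, and 19.6 and 16.9 at 200 ng/ml. In D-F it was 10.8 and 7.55 TPM in controls, 14.5 and 15.5 at 20 ng/ml, and 17.4 and 15.9 at 200 ng/ml. Control and 20 ng/ml samples overlapped in A-C, and the line sets overlapped at every dose. The 20 and 200 ng/ml samples did not overlap in either set, which with 2 samples a dose can easily arise by chance. The fitted log2 difference between these doses was 0.20 (edgeR, adjusted p = 0.615). The log2 fold change was 0.74 (SE 0.11, adjusted p = 0.00288) at 200 and 0.55 (SE 0.11, adjusted p = 0.0230) at 20 ng/ml.

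The order of the members by TPM changed with treatment. In A-C controls it ran GBP1, GBP3, GBP2, GBP4, GBP5, and no 2 neighbours overlapped. In D-F controls GBP3 stood above GBP1, again without overlap. At 200 ng/ml the order in both sets was GBP1, GBP3, GBP4, GBP2, GBP5, so that GBP4 lay above GBP2 in all 4 samples.

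From 20 to 200 ng/ml the estimates of all 5 members were higher, each by less than 2-fold. None of 5 members was called higher by edgeR, against 0.015% of all genes (3 of 19944), and none by DESeq2. With so few genes called in all, the lack of a call says little about the members. In edgeR 4 of 5 had an unadjusted p under 0.05 at any fold, against 9.26% of all genes. With the adjusted p alone and no fold threshold, 2 of 5 were higher (GBP1 and GBP4), against 0.0903% of all genes. Their log2 differences were 0.62 for GBP1 (SE 0.08, adjusted p = 0.0341) and 0.58 for GBP4 (SE 0.08, adjusted p = 0.0398). Neither held throughout: with 1 sample left out at a time, the adjusted p exceeded 0.05 for GBP1 in 7 of 12 fits (0.0223 to 0.160) and for GBP4 in 10 of 12 (0.0256 to 0.180). For GBP1 and GBP4 the adjusted p was 0.204 and 0.349 with limma and 0.115 and 0.141 with a replicate block. Without line set in the fit it was above 0.05 for both. It was 1.30e-07 and 3.66e-06 with DESeq2, and 0.0225 and 0.0291 in edgeR without the filter on low counts. In edgeR it was 0.0372 and 0.0424 with median-of-ratios normalization, and 0.0276 and 0.0781 with only the samples compared. GBP5 differed by 0.87 (SE 0.26, adjusted p = 0.350), GBP3 by 0.25 (SE 0.11, adjusted p = 0.524) and GBP2 by 0.20 (SE 0.11, adjusted p = 0.615).

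The line sets differed in their untreated levels of some members. Of 5 members 2 were called, GBP1 and GBP5, both lower in D-F, against 26.6% of all genes called in either direction, which makes a call between the lines common. The log2 difference, D-F minus A-C, was -1.73 for GBP1 (SE 0.13, adjusted p = 5.03e-06) and -3.26 for GBP5 (SE 0.56, adjusted p = 0.00107). It was -0.41 for GBP2 (SE 0.15, adjusted p = 0.0562), 0.13 for GBP3 (SE 0.15, adjusted p = 0.538) and 0.17 for GBP4 (SE 0.12, adjusted p = 0.308).

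Within line sets, 3 of 5 members were called higher at 200 ng/ml in A-C (GBP1, GBP4 and GBP5), against 1.41% of all genes. In D-F 4 of 5 were called, GBP3 being added, against 1.67%. The log2 fold changes in A-C and D-F were 2.08 and 2.54 for GBP1, 2.41 and 2.95 for GBP4, and 3.48 and 4.55 for GBP5. They were 0.86 and 1.3 for GBP3 and 0.66 and 0.82 for GBP2. All 5 estimates were larger in D-F, but the test of the difference itself called 0 of 5 members, against 0.998% of all genes, and DESeq2 called 0. In edgeR 2 of 5 had an unadjusted p under 0.05 at any fold, against 17.7% of all genes. The differences were 0.45 for GBP1 (SE 0.17, adjusted p = 0.205), 0.17 for GBP2 (SE 0.22, adjusted p = 0.763) and 0.44 for GBP3 (SE 0.22, adjusted p = 0.332). They were 0.55 for GBP4 (SE 0.17, adjusted p = 0.140) and 1.07 for GBP5 (SE 0.68, adjusted p = 0.450). The GBP5 difference was 0.26 without F1, 0.67 without D1 and 1.61 without D2. At 20 ng/ml the test also called 0 of 5 members, against 0.231% of all genes, and DESeq2 called 0. In edgeR 3 of 5 had an unadjusted p under 0.05 at any fold, against 10.5% of all genes. The nearest to the threshold was GBP4 (log2 difference 0.81, SE 0.17, adjusted p = 0.0958). Among the 10 interferon-stimulated genes checked, the same test called 6 at 200 ng/ml, for example ISG15 (2.81, SE 0.30, adjusted p = 0.00416). A p that misses the threshold does not show that the members responded alike in both lines.

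**Figure D2:**
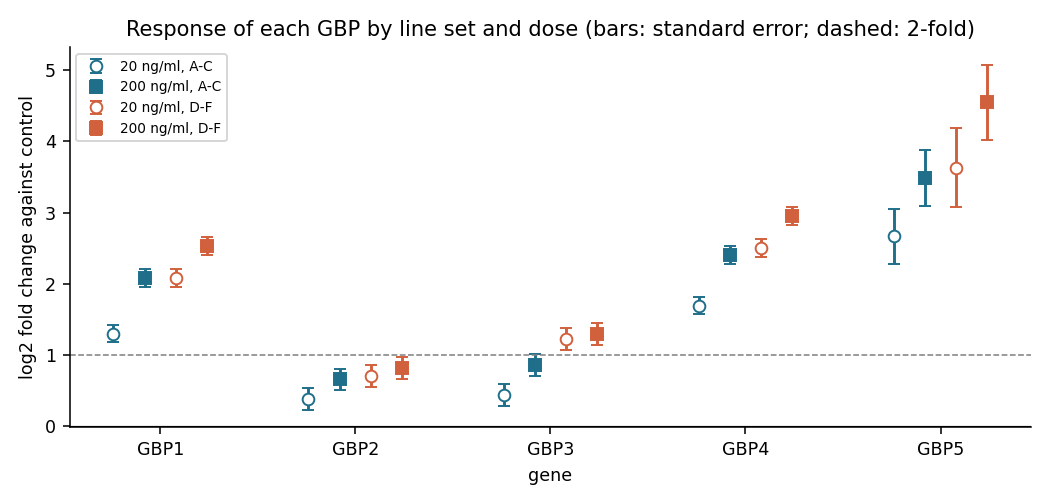
Log2 fold change against control of each gene by dose and line set, with bars for the standard error and a dashed line at 2-fold. GBP2 stays below the line in all 4 comparisons, and GBP3 passes it in D-F and not in A-C.

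The family as a sum rose, and its make-up shifted. Summed over the 5 members, TPM was 78.8 to 83.8 in A-C controls and 246 to 292 at 200 ng/ml, and 51.2 to 57.1 and 220 to 233 in D-F. The share of GBP1 in that sum went from a mean of 49.9% to 60.7% in A-C and from 28.97% to 39.0% in D-F. The share of GBP4 went from 6.09% to 11.3% in A-C and from 11.2% to 23.3% in D-F. GBP3 went from 29.3% to 16.8% in A-C and from 42.9% to 29.02% in D-F, although its own level was higher after treatment. Averaged over the sets the shares moved by 10.4 points for GBP1, 8.65 for GBP4, 2.03 for GBP5, -7.94 for GBP2 and -13.1 for GBP3. When doses were exchanged within line sets, each gave an exact permutation p (two-sided) of 0.0556, the smallest that the 36 arrangements allow.

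**Figure D3:**
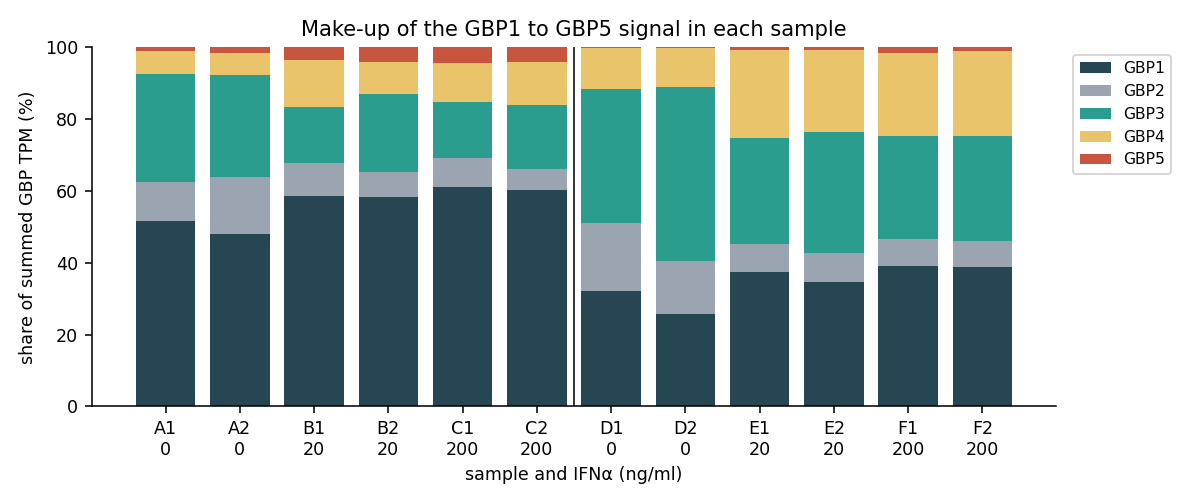
Stacked bars of the share of each gene in the summed TPM of the 5 members, per sample, with line set A-C left of the vertical line and D-F right of it. GBP1 holds 48.1% to 61.1% in A-C and 25.7% to 39.2% in D-F.

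The members have 31 transcripts in the table, 9 of them coding by annotation, and 22 passed the filter. All 22 tested had a log2 fold change above 0 at 200 ng/ml, but the share above 0 over all transcripts was not computed. The estimate for GBP3-207 had a standard error of 2663, so its sign says nothing. Transcripts of a gene split reads over shared exons, so these are not 22 separate results. Only 3 were called higher, against 0.343% of all transcripts tested, and all 3 were coding. They were GBP1-201 (2.30, SE 0.11, adjusted p = 0.000154), GBP4-201 (2.60, SE 0.11, adjusted p = 0.000119) and GBP5-201 (5.40, SE 0.57, adjusted p = 0.0151). GBP5-201 was listed at 0 TPM in both D-F controls. GBP5-201 lost its call under a replicate block and in 6 of 12 fits with 1 sample left out (A1, A2, D1, D2, F1 or F2), which leaves 2 transcripts called. DESeq2 called 8 member transcripts in place of 3, but the share it called over all transcripts was not computed. The common biological coefficient of variation was 0.837 over transcripts and 0.196 over genes, so transcript values were less precise. A transcript that was not called is therefore not shown to be unchanged.

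How much of a gene's signal was assigned to coding transcripts differed between members. The median share over the 12 samples was 93.9% for GBP4, 79.0% for GBP5, 77.4% for GBP1, 59.2% for GBP2 and 34.3% for GBP3. In GBP3 most of the signal lay in transcripts not annotated as coding, in every sample but F2. Its leading transcripts, GBP3-201 and GBP3-208, are annotated as targets of nonsense-mediated decay and averaged 9.39 and 9.32 TPM. The full-length coding transcript GBP3-202 averaged 5.70 TPM and the short coding GBP3-205 averaged 6.53. GBP3-203, a retained intron, averaged 3.91 TPM. GBP3-207, another decay target, was listed at 0 in all 6 D-F samples and in A1, and lay between 2.80 and 9.62 TPM in the other five.

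GBP2-201, the only coding transcript of GBP2, differed between A-C control replicates, at 2.38 and 10.9 TPM. In the same samples GBP2-203, a decay target whose 5′ part lies within the span of the neighbouring gene GBP7, was listed at 4.54 and 0.63 TPM. GBP2-202, a noncoding transcript, averaged 2.1 TPM. GBP4-202, a noncoding transcript of 2 exons, was listed at 0 in all 4 controls and at 2.43, 8.07, 3.81 and 2.67 TPM at 200 ng/ml. Its change did not pass the test (adjusted p = 0.270). Transcript counts are estimates that split reads over shared exons, and errors in the split move values between transcripts of a gene.

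**Figure D4:**
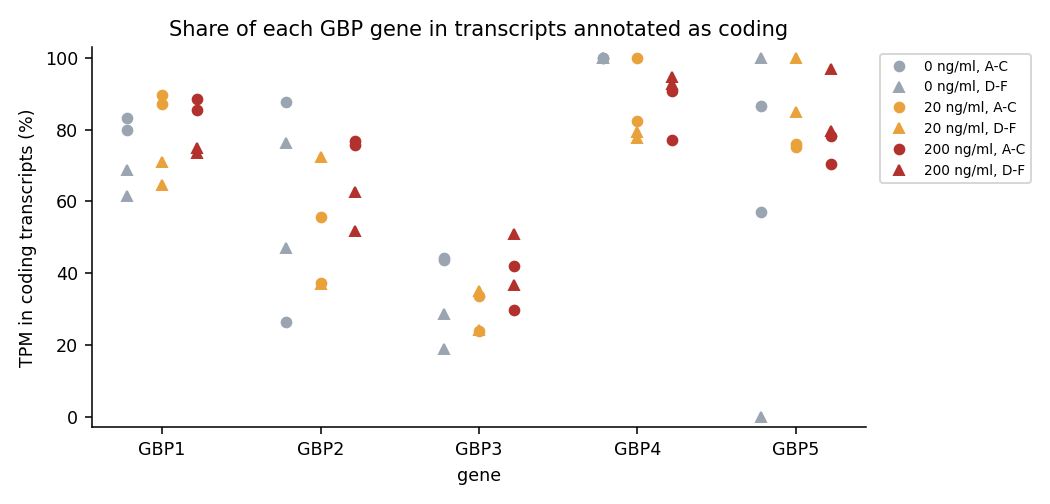
Share of each gene's TPM assigned to transcripts annotated as coding, with 1 point per sample, colours for dose and shapes for line set. GBP3 lies between 18.7% and 51.0%, GBP4 between 77.1% and 100%, and the scatter of GBP5 in D-F controls rests on 2 and 4 counts.

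Genes on either side of the cluster were compared with the members. Of 8 flanking genes, 0 were called in either direction by edgeR at 200 ng/ml and 0 by DESeq2, and their median log2 fold change was 0.22. In edgeR 4 of 8 had an unadjusted p under 0.05 at any fold, against 23.9% of all genes. LRRC8B, a subunit of volume-regulated anion channels, passed the adjusted p threshold alone (0.31, SE 0.09, adjusted p = 0.0487).

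**Figure D5:**
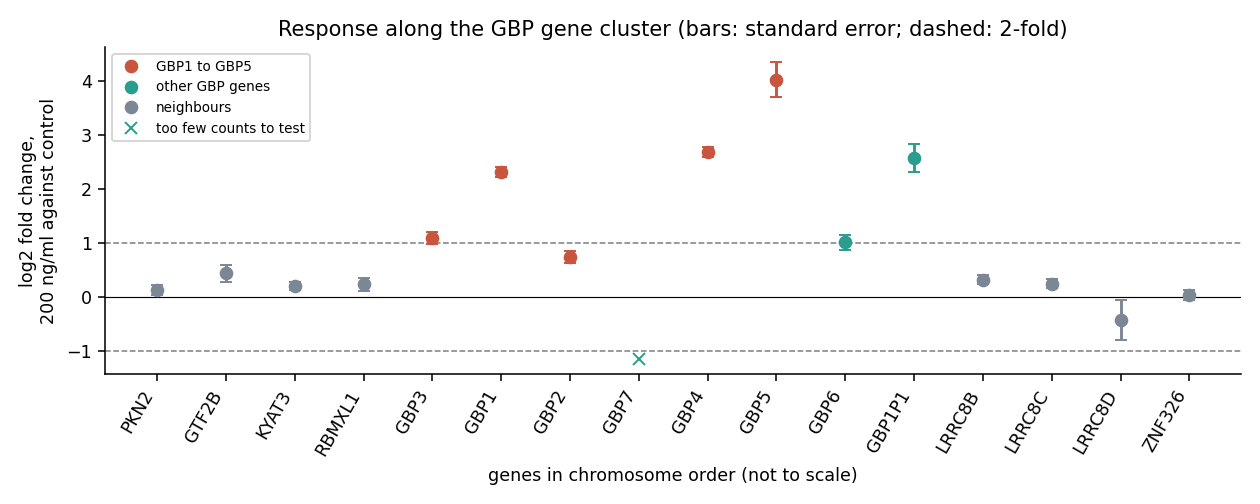
Log2 fold change at 200 ng/ml against control along the gene cluster in chromosome order, not to scale, with bars for the standard error and dashed lines at 2-fold. The members lie between 0.74 and 4.02, the flanking genes between -0.42 and 0.43, and GBP7 is marked at the bottom because it could not be tested.

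Of 12 genes listed, relatives of the members together with the unrelated RNF213, 8 could be tested. Of these, 3 were called higher at 200 ng/ml, against 1.58% of all genes. GBP6 rose by 1.00 on the log2 scale (SE 0.14, adjusted p = 0.00256) and in untreated D-F was lower than in A-C by -2.45 (SE 0.21, adjusted p = 1.52e-05). GBP1P1, a pseudogene that shares words with GBP1, rose by 2.57 (SE 0.26, adjusted p = 0.000268). RNF213, a ubiquitin ligase that modifies lipopolysaccharide on cytosolic bacteria, rose by 1.63 (SE 0.05, adjusted p = 2.01e-08). The atlastins ATL1, ATL2 and ATL3, dynamin-like GTPases of the endoplasmic reticulum, were not called.

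Of 12 listed genes of interferon signalling, 3 were called higher at 200 ng/ml, against 1.58% of all genes, with a list median of 0.39. Among them were STAT2 (1.80, SE 0.08, adjusted p = 6.80e-07) and IRF9 (2.69, SE 0.13, adjusted p = 1.03e-06). IRF1, the factor that IFNγ uses to raise these genes, had an estimate of 0.40 on the log2 scale (SE 0.06, adjusted p = 0.00432), under 2-fold. IFNGR1, the ligand-binding chain of the IFNγ receptor, was lower in untreated D-F by -2.17 (SE 0.18, adjusted p = 1.05e-05). The receptor chains IFNAR1 and IFNAR2 were not called at either dose.

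Of 6 genes that attach or process the prenyl anchor, 0 were called in either direction by edgeR at 200 ng/ml and 0 by DESeq2, with a list median of 0.03. In edgeR 1 of 6 had an unadjusted p under 0.05 at any fold, against 23.9% of all genes. FNTA, the subunit shared by farnesyl and geranylgeranyl transferase, had an estimate of 0.44 on the log2 scale (SE 0.09, adjusted p = 0.0134).

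Of 9 genes of the inflammasome pathways that guanylate-binding proteins act on, 7 could be tested. At 200 ng/ml 1 was called higher, against 1.58% of all genes. It was AIM2, a sensor of cytosolic DNA (1.85, SE 0.15, adjusted p = 6.75e-05). CASP4, the caspase recruited to the GBP1 coat, had an estimate of 0.36 on the log2 scale (SE 0.09, adjusted p = 0.0364), and CASP1 0.90 (SE 0.09, adjusted p = 0.000207), both under 2-fold. Within D-F, CASP1 was called higher (1.22, adjusted p = 0.000418). NLRP3 and CASP5 had too few counts. In untreated D-F, AIM2 (-2.17), CASP1 (-1.86) and CASP4 (-1.09) were called lower than in A-C, and IL18 was called higher (1.66). Over all genes 26.6% were called between the untreated lines in either direction, so such calls are common.

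Of 8 partners and targets, 2 were called higher at 200 ng/ml, against 1.58% of all genes. TRIM21, a cytosolic antibody receptor and ubiquitin ligase, rose by 1.97 (SE 0.08, adjusted p = 1.67e-07), and UBE2L6, the conjugating enzyme for ISG15, by 1.97 (SE 0.06, adjusted p = 2.64e-08). FURIN, the protease that GBP2 and GBP5 inhibit, had an estimate of 0.04 on the log2 scale (SE 0.07, adjusted p = 0.821). PIM1, a kinase reported to bind GBP1, had -0.27 (SE 0.11, adjusted p = 0.179), and SFN, which binds phosphorylated GBP1, 0.06 (SE 0.05, adjusted p = 0.542).

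The genes whose pattern was most like each member were found by Pearson correlation of log2 CPM (counts scaled for depth) over the 12 samples, which share doses and line sets. For GBP1 they were NMI (0.995), NT5E (0.989), ERAP2 (0.987), USP25 (0.980) and RTP4 (0.980). For GBP4 they were TRIM21 (0.992), CYP2J2 (0.992), DDX60 (0.989), UBE2L6 (0.989) and SAMHD1 (0.988). For GBP5 they were NT5E (0.984), ZC3HAV1 (0.977), GBP1 (0.975), IFI16 (0.974) and ERAP2 (0.974). GBP1 and GBP5 shared NT5E and ERAP2 on this scale, and only NT5E also with log2(TPM + 0.1). NT5E had a lower estimate in untreated D-F (log2 -0.92).

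For GBP3 the nearest patterns were GFOD1 (0.974), TRANK1 (0.965), ZFYVE26 (0.964), UBA7 (0.963) and HERC5 (0.963). For GBP2 they were IFIT2 (0.966), C5orf56 (0.963), CXCL10 (0.954), GBP1P1 (0.945) and HSH2D (0.944). With log2(TPM + 0.1) in place of log2 CPM, 4 of the 5 genes stayed for GBP4, 2 for GBP1, 2 for GBP5, 1 for GBP3 and 0 for GBP2, so every list but that of GBP4 depended on the scale.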

How the data were processed

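The authors deposited for each gene and transcript an estimated count in whole numbers, a TPM value and an FPKM value, the last ones scaled by the authors for length and depth. Per the submitters' processing notes, Trimmomatic 0.36, HISAT2 2.1.0, StringTie 1.3.3b and GRCh38.p10 were used, with no roles given. Whether counting used the strand, and the annotation release, are not given in the sources used here. Estimated counts were tested with edgeR 4.0.16 in R 4.3.3 (TMM, filterByExpr, quasi-likelihood test, 6 groups in a single fit, Benjamini-Hochberg adjustment). Standard errors were |log2 fold change|/√F. Levels and shares used deposited TPM. Shares were also computed from FPKM, but within a sample TPM is FPKM times a constant. The shares therefore had to be the same, and FPKM was no separate check. DESeq2 1.42.0 and limma 3.58.1 on log2(TPM + 0.1) were alternatives. The tests were tried on simulated data, in which edgeR recovered most genes changed by more than the fold used for calling, a minority of those changed by that fold, and no changed transcripts. Transcript types came from GENCODE 29, where all 31 member transcripts had the deposited positions. Promoter windows came from RefSeq on GRCh38.p14. Words, identities, exact intervals and permutation tests were computed in Python 3.11.15 with Biopython 1.88, pandas 2.3.3 and scipy 1.17.1, and figures with matplotlib 3.10.9.

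The members and gene lists were chosen with earlier results of these data known. Named were all members, list genes that were called or whose role is explained, the 5 genes of most similar pattern per member, and transcripts averaging at least 1 TPM and 5% of their gene. Replicate counts differed beyond sampling noise, with chi-square over its degrees of freedom at 11.7 to 16.4. The small number of replicates, 2 per group, limits the precision. The values of some listed genes are not reported here.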

Additional observations from a re-analysis of the deposited data

How the results depend on the processing

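Of 177 alternative values of the counts of called members and transcripts and of the shares, 173 stayed within 1.5 times or within the spread between replicates. This rule is loose: 3 members called in place of 4 pass it, as does a count of 0 that stayed 0. Shares from FPKM had to equal those from TPM, so their agreement was fixed in advance. Without line set in the fit, 1 member was called at 200 ng/ml and 1 at 20 ng/ml, GBP4 in each case, in place of 4 and 3. Member transcripts called at 200 ng/ml were 8 with DESeq2 and 12 at an unadjusted p of at most 0.05, in place of 3. The shares of all transcripts called in those settings were not computed, so the 8 and 12 say little about the members. Blocking on replicate number, 4 members were called at 200 ng/ml and 3 at 20 ng/ml, as without it. Deviations of samples with the same number correlated at -0.051 to 0.058, so the numbers did not pair the samples. With the block, 2 member transcripts were called in place of 3. Over all genes the block lowered the calls at 200 ng/ml from 426 to 367, at 200 against 20 ng/ml from 9 to 0, and for the difference between line sets from 199 to 69. Leaving out each sample in turn, GBP3 at 200 ng/ml lost its call without C2 (0.99), and within A-C it gained one without C1 (4 members called in place of 3). Member transcripts called ranged from 2 to 3, and GBP1 and GBP4 lost an adjusted p under 0.05 for 200 against 20 ng/ml in 7 and 10 of 12 fits. A lone sample left in a group was assumed to vary like the other groups. The 2 and 4 counts of GBP5 in D-F controls limit its fold there, and GBP7 was not measurable at this depth. Causes were not tested.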
